A study of Homo sapiens with 6 samples.

Results

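The kinesins are a family of motor proteins that turn ATP hydrolysis into force on microtubules. Their genes were taken from the deposited expression table as every protein-coding gene whose symbol starts with KIF or KIFC followed by a digit. The rule found 43 genes among 19951 protein-coding genes and 58735 genes in all. They were divided by their known work in the cell into 14 mitotic kinesins, 15 cargo-transport kinesins and 14 other genes, of which KIF1BP encodes a kinesin-binding protein and no motor.

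PC9-BrM3 is a brain-metastatic derivative of the human lung adenocarcinoma line PC9, obtained by repeated passage through the brains of immunodeficient mice. RNA-seq was available for 3 libraries of PC9-BrM3 cells in routine culture carrying a lentiviral shRNA against AKR1B10, an aldo-keto reductase (BrM3-shAKR1B10), and for 3 libraries of the same line carrying a negative control shRNA (BrM3-shNC), whose labelled genotype is WT. The study describes 1 targeting vector for this group, so an effect of that vector on other transcripts cannot be told apart from the loss of AKR1B10. No label says that the libraries of a group came from separate cultures, and the p-values measure only the spread between these libraries.

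AKR1B10 itself was measured at 108, 107 and 110 FPKM in BrM3-shAKR1B10 and at 799, 775 and 772 FPKM in BrM3-shNC, which is 13.9% of the control level (log2 fold change -2.85, adjusted p = 1.6e-07 by limma). FPKM is the number of reads on a gene scaled by gene length and by the size of the library. Each library held 16964504 to 18709028 reads assigned to genes. Of the cell type markers, the 5 epithelial genes summed to 2732 ± 34.1 FPKM with the knockdown and to 2655 ± 155 FPKM without it (SD, n = 3), and 0 of 5 were called by limma (adjusted p under 0.05, and a log2 fold change of more than 0.5 in size), beside 7.45% of all genes tested that fell and 5.83% that rose. At an unadjusted p under 0.05, 1 of the 5 lay below the controls and 1 above, beside 27.3% and 23.8% of all genes tested. The 6 neural genes summed to between 2.53 and 2.70 FPKM in BrM3-shAKR1B10 and to between 3.43 and 3.61 FPKM in BrM3-shNC, nearly all of it MBP (log2 fold change -0.40, adjusted p = 0.0022), with STMN2 at 0 in every library. The 7 stromal, endothelial and immune genes summed to between 3.47 and 3.49 FPKM against between 3.77 and 4.0 FPKM. Of these, COL1A1 was at 1.22 FPKM against 1.98 FPKM and CDH5 at 1.85 FPKM against 1.14 FPKM, both called. PECAM1 was at 0.272 FPKM against 0.438 FPKM and CD68 at 0.0425 FPKM against 0.161 FPKM, both without overlap and under the level for testing, and PTPRC and COL3A1 had means of at most 0.0756 FPKM. The part of such transcripts in the kinesin results was not tested.

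During division, some kinesins push spindle poles apart, move or hold chromosomes, shorten microtubules at their ends and build the central spindle on which the cell divides. Their transcripts rise in most cycling cells towards G2 and mitosis. Transport kinesins work throughout the cell cycle, carrying vesicles, endosomes, mitochondria and other cargo along microtubules, mostly towards the cell periphery.

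Transcripts of the mitotic kinesins were lower in BrM3-shAKR1B10, while most transport kinesins were not called in either direction. All 12 mitotic kinesins with enough signal to test fell, to between 39.0% and 60.7% of the control level with a median of 47.3%. Of 11 transport kinesins tested, 0 fell and 1, KIF13A, rose. Of 7 other genes tested, KIF21A fell and KIF7 rose, but KIF21A reached the level for testing only through its control libraries. Genes were tested with limma on log2(FPKM + 0.1) where the mean over the 6 libraries was at least 1 FPKM, and were called at a Benjamini-Hochberg adjusted p under 0.05 over all genes tested with an absolute log2 fold change above 0.5. By this rule 7.45% of the 13150 genes tested fell and 5.83% rose. At an adjusted p under 0.05 and any size of change, limma gave 4 of the 11 transport kinesins below the controls and 3 above, beside 23.1% and 19.4% of all genes tested. The same 4 and 3 counts were found at an unadjusted p under 0.05, beside 27.3% and 23.8%, and voom on the recovered reads gave the same called counts for all 3 classes as the main test. Since 30 of the 43 kinesin genes passed the filter on low values, the counts say nothing of the remaining 13.

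The values of the groups did not overlap for any of the 12 mitotic kinesins tested, with the knockdown libraries below the control libraries, against 29.2% of all genes tested. Among the transport kinesins, 4 of 11 lay below the controls without overlap and 3 lay above them, and 25.5% of all genes tested lay above. The median log2 fold change was -1.08 over the mitotic kinesins, -0.02 over the transport kinesins, 0.03 over the other genes and -0.01 over all genes tested. Fold changes on this scale slightly understate the change of genes with low FPKM.

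Of the mitotic motors that build the spindle, KIF11 forms the tetramers that slide microtubules of opposite polarity apart. It was measured at 12.7, 14.3 and 13.3 FPKM in BrM3-shAKR1B10 and at 28.5, 29.4 and 27.8 FPKM in BrM3-shNC. The log2 fold change was -1.09 (SE 0.0518, adjusted p = 2.7e-05 by limma), a level near the median of its class. KIF15, which can stand in for KIF11 in keeping the poles apart, had the lowest level of the tested mitotic motors, with 3.06, 3.54 and 3.29 FPKM against 7.46, 6.93 and 7.69 FPKM. Its log2 fold change was -1.14 (SE 0.0702, adjusted p = 6.6e-05). KIFC1 walks towards microtubule minus ends and draws them together at the poles, and so works against KIF11. It was at 20.0, 16.7 and 19.8 FPKM in BrM3-shAKR1B10 and at 37.2, 39.5 and 40.0 FPKM in the BrM3-shNC libraries, for a log2 fold change of -1.05 (SE 0.0759, adjusted p = 0.00012). In all 3 of these spindle motors the highest knockdown library lay well under the lowest control library.

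Several of the mitotic motors act on chromosomes or on the microtubule ends that hold them. KIF22, a chromokinesin that pushes chromosome arms away from the poles, had the smallest fall of the class. It was at 19.2, 17.6 and 18.6 FPKM in BrM3-shAKR1B10 and at 27.8, 32.0 and 31.4 FPKM in the BrM3-shNC libraries, for a log2 fold change of -0.72 (SE 0.0635, adjusted p = 0.00027). The other chromokinesin, KIF4A, also stops microtubule growth in the central spindle. Its FPKM values were 11.1, 12.5 and 11.9 against 25.4, 24.4 and 24.9, a log2 fold change of -1.07 (SE 0.0512, adjusted p = 2.7e-05). KIF2C takes tubulin off microtubule ends and helps to correct wrong attachments at kinetochores. It was at 17.7, 17.6 and 18.2 FPKM against 38.5, 39.1 and 38.6 FPKM, with the smallest standard error of the class (log2 fold change -1.11, SE 0.0305, adjusted p = 8.7e-06).

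KIF18A, which damps the swings of chromosomes at the spindle equator, was at 5.69, 5.55 and 5.24 FPKM in BrM3-shAKR1B10 and at 10.4, 11.4 and 10.2 FPKM in BrM3-shNC. The log2 fold change was -0.94 (SE 0.0566, adjusted p = 6e-05). KIF18B, which limits the length of astral microtubules, was at 9.42, 7.16 and 9.22 FPKM against 14.8, 15.8 and 15.4 FPKM. The second knockdown library was the lowest of the 3, and KIF18B had the largest standard error of the tested mitotic motors (log2 fold change -0.84, SE 0.104, adjusted p = 0.0011). The paralogs KIF18A and KIF18B did not differ in fold change beyond the spread of the libraries, with a difference of -0.11 (SE 0.139, exact permutation p = 0.5, two-sided).

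The remaining mitotic motors serve cytokinesis. KIF20A, which carries the chromosomal passenger complex to the central spindle, was the most abundant kinesin in the control cells and had the largest fall. It was at 20.6, 19.3 and 20.4 FPKM in BrM3-shAKR1B10 and at 52.7, 52.7 and 49.4 FPKM in BrM3-shNC, with a log2 fold change of -1.36 (SE 0.0418, adjusted p = 9.9e-06). KIF20A lies on the plus strand of chromosome 5 (chr5:138178719-138187715, GRCh38). By size of fold change it ranked 48 among the 980 genes that fell, and KIF22 ranked 481. KIF20B, its paralog, acts late in cytokinesis and was at 6.04, 5.93 and 5.88 FPKM against 13.5, 13.1 and 12.2 FPKM, a log2 fold change of -1.10 (SE 0.0485, adjusted p = 2.1e-05).

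KIF23 forms the centralspindlin complex with RACGAP1. Its FPKM values were 8.37, 8.75 and 9.70 in BrM3-shAKR1B10 and 17.2, 16.3 and 16.4 in the BrM3-shNC libraries, for a log2 fold change of -0.89 (SE 0.0602, adjusted p = 9.3e-05). KIF14, which brings citron kinase to the midbody, was at 6.86, 6.27 and 6.70 FPKM against 15.4, 15.4 and 15.2 FPKM, a log2 fold change of -1.20 (SE 0.0441, adjusted p = 1.4e-05). The 12 genes lie on 10 chromosomes, and their known roles run from spindle assembly to cytokinesis. Not every kinesin with a role in the spindle fell: KIF2A, which also acts at spindle poles, was placed among the other genes and was not called (log2 fold change -0.15, adjusted p = 0.043 by limma). The count of 12 of 12 depends on that division, which was made with earlier results of these data known.

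The remaining mitotic kinesin genes, KIF2B and KIF4B, were not tested because of their low level. KIF2B was at 0 reads in every library. KIF4B, an intronless copy nearly identical to KIF4A, had 0, 2 and 0 reads in BrM3-shAKR1B10 and 3, 8 and 7 in BrM3-shNC. Reads of KIF4A and KIF4B may be exchanged in counting, so the KIF4B values are uncertain. KIF4A had between 888 and 2117 reads per library.

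**Figure D1:**
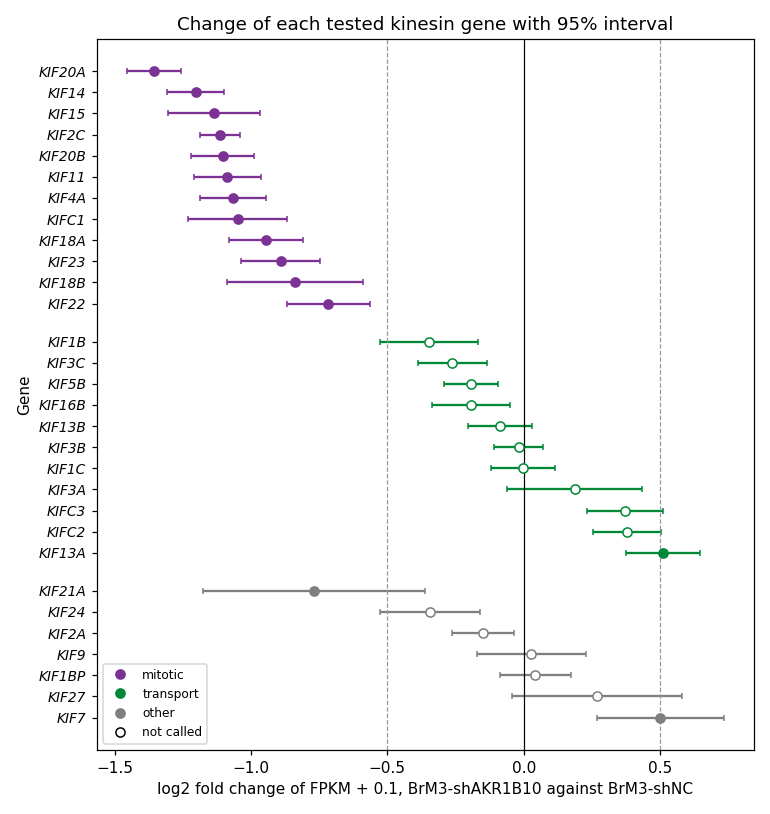
Log2 fold change of FPKM + 0.1 between BrM3-shAKR1B10 and BrM3-shNC with its 95% interval from limma, for the 12 mitotic, 11 transport and 7 other kinesin genes tested (filled points were called, and dashed lines mark the threshold of 0.5 on either side of 0). The mitotic points lie between -1.36 and -0.72, and the transport points between -0.35 and 0.51.

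The log2 fold changes of the mitotic motors lay between -1.36 and -0.72. When the 12 motors were sorted by fold change and each was set beside the next, the groups were apart for 1 of 11 neighbouring pairs, KIF20A and KIF14, whose log2 fold changes lay -0.15 apart, and overlapped for the other 10. KIF20A and KIF22, picked as the ends of the order, were -0.64 apart. Since the same fold changes set the order, these neighbours and ends are a description and no test. The paralogs KIF20A and KIF20B, paired by their sequence family, differed by -0.25 (SE 0.0322), with groups apart. The exact two-sided permutation test gave 0.1 for this pair, the smallest p that 3 libraries a group allow.

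Some mitotic exons share bases with a neighbouring gene on the opposite strand, and whether counting used the strand is not given in the sources used here. KIF20A, with a mean of 2528 reads, shares 5.05% of its exonic bases with BRD8 and CDC23. Both were abundant and lower in BrM3-shAKR1B10, BRD8 with a mean of 2392 reads and a log2 fold change of -0.28 (adjusted p = 0.004 by limma), and CDC23 with 1175 reads and -0.58 (adjusted p = 0.00011). Their part in the KIF20A values was not tested. KIF22 shares 13.0% with an antisense gene at 0 reads in all libraries, and KIFC1 shares 12.7% with a pseudogene at a mean of 2.0 reads. Among the tested mitotic motors, KIF11, KIF14, KIF15, KIF18B and KIF20B share none.

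The 3 most abundant transport kinesins by the mean over all 6 libraries, KIF5B, KIF1C and KIF3B, were not called. In BrM3-shAKR1B10 alone, KIFC2 lay above KIF3B. KIF5B, the ubiquitous heavy chain of conventional kinesin, was at 27.5, 28.6 and 28.5 FPKM in BrM3-shAKR1B10 and at 33.4, 30.7 and 32.8 FPKM in BrM3-shNC. The log2 fold change was -0.19 (95% interval -0.29 to -0.09, adjusted p = 0.011), and its groups did not overlap, but the difference lay under the threshold of size. KIF1C, which moves vesicles between cell centre and periphery, was at 23.7, 23.1 and 25.4 FPKM against 23.2, 23.9 and 25.2 FPKM. The 95% interval of its log2 fold change ran from -0.12 to 0.11 (adjusted p = 0.97). KIF3B, which pairs with KIF3A in the motor of intraflagellar transport, was at 18.1, 18.4 and 18.6 FPKM against 19.4, 18.2 and 18.4 FPKM, and its 95% interval ran from -0.11 to 0.07.

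KIF13A, a motor of recycling endosomes on chromosome 6, was the only called transport kinesin. It was at 4.44, 4.33 and 4.20 FPKM in BrM3-shAKR1B10 and at 3.14, 2.91 and 2.96 FPKM in the BrM3-shNC libraries, for a log2 fold change of 0.51 (SE 0.0570, adjusted p = 0.00069). The call lies at the edge of the threshold of size: the log2 fold change was 0.49 without knockdown replicate 1 and 0.49 without control replicate 2, and neither was called. KIFC2 and KIFC3, which both move towards microtubule minus ends, had values above those of the controls without overlap. KIFC2 was at 19.8, 19.8 and 21.1 FPKM against 14.6, 16.3 and 15.8 FPKM, a log2 fold change of 0.38 (adjusted p = 0.0017). KIFC3 showed a log2 fold change of 0.37 (adjusted p = 0.0028), and neither gene passed the threshold of size.

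The other tested transport kinesins were not called. KIF1B, KIF3C and KIF16B had log2 fold changes of -0.35, -0.26 and -0.19 with adjusted p values of 0.011, 0.008 and 0.04, all under the threshold of size, and groups that did not overlap. KIF13B and KIF3A had log2 fold changes of -0.09 and 0.19, and their groups overlapped. The 4 transport kinesins under the filter are known mainly from neurons or cilia: KIF17 had between 16 and 32 reads per library, and KIF1A, KIF5A and KIF5C had between 0 and 11.

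Summed over the class, the mitotic kinesins reached 141, 135 and 142 FPKM in BrM3-shAKR1B10 and 289, 296 and 289 FPKM in BrM3-shNC, which is 47.8% of the control mean. The transport kinesins summed to 129, 131 and 134 FPKM against 131, 129 and 135 FPKM, or 99.9% of the control mean. The share of kinesin FPKM that was mitotic was 46.1% ± 0.735 in BrM3-shAKR1B10 and 63.9% ± 0.749 in BrM3-shNC (SD, n = 3). The transport share was 43.5% ± 0.421 in the knockdown libraries and 28.9% ± 0.65 in the control libraries.

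The ratio of KIF20A, which had the largest fall, to KIF5B within a library restates their fold changes and is no further test. KIF20A was at 1.60 ± 0.106 times the FPKM of KIF5B in BrM3-shNC and at 0.713 ± 0.0369 times in BrM3-shAKR1B10 (SD, n = 3). Related motors placed in different classes differed in fold change. The fold change of KIF2C was 0.96 lower on the log2 scale than that of KIF2A (SE 0.0569), a microtubule depolymerase with roles at spindle poles and in neurons. The difference between the minus-end motors KIFC1 and KIFC3 was -1.42 (SE 0.0998). For both pairs the groups were apart, with an exact permutation p of 0.1.

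Among the 14 other genes, KIF21A, which restrains microtubule growth at the cell cortex, fell from 1.47, 1.27 and 1.24 FPKM in BrM3-shNC to 0.688, 0.739 and 0.780 FPKM in BrM3-shAKR1B10. Its log2 fold change was -0.77 (SE 0.17, adjusted p = 0.012). The gene lay just over the filter, with a mean of 1.03 FPKM over all libraries and 0.736 FPKM in BrM3-shAKR1B10, and was not tested when any 1 of the control libraries was left out. Its entry among the genes tested thus depended on the group where it was higher, and its call is no support for the class. KIF21B lay just under the filter, with 0.822 FPKM against 1.08 FPKM. KIF7, a regulator of Hedgehog signalling in the primary cilium, was at 2.29, 2.55 and 2.44 FPKM against 1.61, 1.86 and 1.59 FPKM. Its log2 fold change of 0.50 (SE 0.0972, adjusted p = 0.007) was just past the threshold, and it was not called without knockdown replicate 2 (0.46), knockdown replicate 3 (0.496), control replicate 1 (0.47) or control replicate 3 (0.46). KIF7 also shares 11.8% of its exonic bases with TICRR on the other strand, which had a mean of 549 reads against 183 for KIF7 and a log2 fold change of -0.34.

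KIF2A was the most abundant of these other motors, with 11.1, 10.6 and 10.6 FPKM in BrM3-shAKR1B10 and 12.5, 11.4 and 11.9 FPKM in BrM3-shNC (log2 fold change -0.15, adjusted p = 0.043). KIF1BP was at 9.54, 10.5 and 9.82 FPKM against 10.2, 9.31 and 9.53 FPKM, and its groups overlapped. KIF24, a depolymerase that restrains cilium formation, was at 2.35, 2.41 and 2.43 FPKM against 3.31, 3.07 and 2.84 FPKM, without overlap. It stood at a log2 fold change of -0.34 (adjusted p = 0.012), under the threshold of size. KIF9 and KIF27, both linked to cilia, had log2 fold changes of 0.03 and 0.27 and were not called. KIF6, KIF12 and KIF19 were at 0 reads in every library, KIF25 had at most 1 read, and KIF26A and KIF26B had between 4 and 35.

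Transcripts of proteins that work with the mitotic motors fell as well. All 9 tested members of a list of 10 partners fell, with a median log2 fold change of -1.12, against 7.45% of all genes tested that fell. CENPE, a kinetochore kinesin whose symbol the rule does not cover, fell by 1.33 on the log2 scale, and HMMR, a spindle assembly factor, fell by 1.36. RACGAP1, which binds KIF23, fell by 1.12. The spindle proteins NUSAP1 and ASPM were at -1.14 and -1.11. CIT, the kinase that KIF14 recruits, fell by 1.03, and TPX2, an activator of Aurora A that also binds KIF11 and KIF15, fell by 1.08. PRC1, which binds KIF4A at the central spindle, was not tested, since it was listed at 0.271 FPKM against 0.457 FPKM and shares 58.4% of its exonic bases with other genes.

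Partners of the transport motors and the subunits of dynein, the main minus-end motor of cargo transport, were mostly not called. Of 15 tested transport partners (kinesin light chains, cargo adaptors and activators), 1 fell (6.67%, against 7.45% of all genes tested) and 0 rose, with a median log2 fold change of -0.02. At an unadjusted p under 0.05, 5 lay below the controls and 3 above. The one called was KLC3, a kinesin light chain, at -0.51 (adjusted p = 0.013), and it was not called without knockdown replicate 1 or control replicate 2, on TPM or with a pseudocount of 1. Of 15 tested dynein and dynactin genes, 0 were called by limma, with a median of -0.01. At an unadjusted p under 0.05, 4 lay below the controls and 5 above, and voom called 1 as lower. Of all genes tested, 27.3% lay below and 23.8% above at that p. The light chain DYNLL1, at 40.2 ± 0.438 FPKM against 56.9 ± 1.44 FPKM, lay just inside that threshold (log2 fold change -0.499, adjusted p = 6.9e-05) and was called without knockdown replicate 1, control replicate 2 or control replicate 3, and the heavy chain DYNC1H1 was at 0.29 (adjusted p = 0.0016).

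The cell cycle markers moved along with the mitotic kinesins. All 12 G2/M genes fell, with a median log2 fold change of -1.17 and a summed level of between 284 and 293 FPKM in BrM3-shAKR1B10 and between 658 and 664 FPKM in BrM3-shNC. Of 12 S phase genes, 7 fell and 0 rose, with a median of -0.55 (5 fell after quantile normalization and 0 at a log2 threshold of 1, where all 12 G2/M genes were still called) and sums of between 364 and 373 FPKM against between 508 and 526 FPKM. Of all genes tested, 7.45% fell and 5.83% rose. In bulk RNA, fewer cells in G2 and mitosis and less kinesin RNA in each such cell cannot be told apart. The part of the cell cycle markers in the fall of the mitotic kinesins was not tested.

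Many genes expressed in G2 and mitosis carry in their promoters a CHR element (cell cycle genes homology region), which binds the MuvB core of the DREAM, MYBL2 and FOXM1 complexes, often downstream of CCAAT boxes bound by NF-Y. RefSeq promoter windows (GRCh38.p14), each from 250 bases before to 50 bases after a transcription start, were matched for 14 of 14 mitotic, 11 of 15 transport and 9 of 14 other genes. They were searched on both strands for the CHR words TTTGAA and TTCGAA and for CCAAT. Of the 12 mitotic motors that fell, 10 held a CHR word (83.3%), against 1 of 11 transport genes, 1 of 9 other genes and 19.5% of all 27305 genes with a window. These comparison groups include genes that were not tested, and among the genes tested that had a window the share was 14.8%. Both a CHR word and CCAAT stood in 1 window for 9 of the 12 (75%), against 7.85% of all genes with a window and 6.30% of those tested. The pair also stood in 1 window for 1 of 11 transport genes (KIF5B) and 1 of 9 other genes (KIF24), and neither was called.

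The bases around the CHR word are shown for these 10 genes, and for KIF5B and KIF24 as the matches outside the mitotic class. Each line is read on the strand that gives the CHR word, which is in capitals, and positions are in GRCh38.p14.
KIF11 (chr10:92593090-92593119, minus strand): tcggcgcctcaaTTTGAAaaagagacagag
KIF15 (chr3:44761747-44761776, minus strand): gatggccgcaaaTTTGAAtttggcgcttgg
KIFC1 (chr6:33391815-33391844, minus strand): acacccgccactTTTGAAttccaacggcca
KIF22 (chr16:29790712-29790741, plus strand): ggcaccggggaaTTCGAAtgggagaggcgg
KIF4A (chrX:70290058-70290087, plus strand): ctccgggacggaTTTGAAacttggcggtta
KIF18A (chr11:28108149-28108178, minus strand): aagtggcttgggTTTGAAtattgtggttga
KIF18B (chr17:44947754-44947783, minus strand): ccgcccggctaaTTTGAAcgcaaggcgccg
KIF20B (chr10:89701602-89701631, plus strand): tggccgccattgTTTGAAtttgaaaacggt
KIF23 (chr15:69414282-69414311, plus strand): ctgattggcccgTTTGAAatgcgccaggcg
KIF14 (chr1:200620733-200620762, plus strand): agaaggccgcaaTTTGAAtgggcgccccgc
KIF5B (chr10:32056548-32056577, minus strand): agtgcagtaaaaTTTGAAtctgcgaccccg
KIF24 (chr9:34329250-34329279, minus strand): acagcgcgggcgTTCGAActggcgcttggc

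In the mitotic genes these words lay close to the start. In KIF11 the word began 28 bases before it, in KIF4A 34, in KIF15 35 and in KIF23 55, while in KIF14 it began at base 2 after the start and in KIF5B 140 bases before it. KIF20B held a second copy directly after the first. The CCAAT word, on either strand, preceded the CHR word in 9 of these 10 mitotic genes and was missing from the window of KIF15, and no CCAAT word overlapped a CHR word in a kinesin window. KIF20A, with the largest fall, held CCAAT words 94 and 67 bases before its start and no CHR word, and KIF2C held neither. The absence of a match says only that these letters are not in the window.

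Stretches of 100 bases upstream of the start show how CCAAT (or ATTGG, the same word on the other strand) and the CHR word (TTCAAA on the other strand) lie to each other in KIF11 and KIF4A, which fell, and in KIF3B and KIF1C, which were not called. These genes are examples and do not stand for their classes. KIF20A and KIF2C fell without a CHR word, and KIF5B was not called though its window held both words. Both words are in capitals, and all stretches are on the plus strand. The last base shown lies 1 base before the RefSeq start in KIF11 and KIF3B, 3 bases before it in KIF1C and 15 bases before it in KIF4A, where an annotated gene start lies farther upstream.
KIF11 (chr10:92593030-92593129): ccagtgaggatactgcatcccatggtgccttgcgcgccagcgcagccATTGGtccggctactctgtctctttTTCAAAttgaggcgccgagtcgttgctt
KIF4A (chrX:70289990-70290089): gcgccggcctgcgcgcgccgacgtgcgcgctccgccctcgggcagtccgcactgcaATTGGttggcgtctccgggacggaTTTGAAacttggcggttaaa
KIF3B (chr20:32277551-32277650): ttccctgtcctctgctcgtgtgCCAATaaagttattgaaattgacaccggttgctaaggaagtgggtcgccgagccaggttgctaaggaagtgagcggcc
KIF1C (chr17:4997848-4997947): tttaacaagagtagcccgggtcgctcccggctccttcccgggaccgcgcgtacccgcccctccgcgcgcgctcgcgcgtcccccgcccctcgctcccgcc

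Over all genes tested that had a window, the median fall of those with both words was smaller than that of the mitotic kinesins. Within the mitotic class, KIF20A (no CHR word) and KIF2C (neither word) had log2 fold changes of -1.36 and -1.11, past the class median of -1.08. Of 561 genes with a CHR word and CCAAT in 1 window, 21.0% fell, with a median log2 fold change of -0.11. Of 758 genes with a CHR word but not in 1 window with CCAAT, 10.3% fell, with a median of -0.05. Of 3098 genes with CCAAT and no CHR word, 6.97% fell, with a median of -0.03. Of 4484 genes with neither word, 6.38% fell, with a median of -0.01. These shares describe the windows, and binding of any factor was not measured.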

How the data were processed

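RNA of PC9-BrM3 cells (6 libraries, 3 BrM3-shAKR1B10, 3 BrM3-shNC, grouped by the labels) was sequenced after poly-T bead selection of mRNA. The authors removed low-quality reads, aligned the rest with HISAT2 2.0.5, counted reads per gene with featureCounts 1.5.0-p3 and deposited FPKM values without pooling replicates. The build and the strand setting are not given in the sources used here, but all 58735 genes match GENCODE 29 (GRCh38) in identifier and position. The authors' gene length, also deposited, returned whole reads for 100% of values (tolerance 0.1 read). The divisor found in each library differs from its reads on genes, so the FPKM values carry a scaling between libraries. A floor of 3 reads corresponds to 0.164 to 0.177 FPKM for a gene of 1000 bases, for counting error only.

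From these values, limma 3.58.1 in R 4.3.3 (lmFit, eBayes with a trend, two-sided) was run on log2(FPKM + 0.1) for genes whose FPKM averaged 1 or more over the libraries, with Benjamini-Hochberg adjustment over all genes tested. Sums, overlaps, exact permutation tests and promoter searches were made in Python 3.11.15. The scripts were tested on simulated data. Every gene that matches the symbol rule is accounted for. Values per library are given for called members and the 3 most abundant of each class, and from each partner list the called genes, at most 5, were open to naming. CENPE, PRC1, CIT, TPX2, DYNLL1 and DYNC1H1 are named for their role or their closeness to the threshold, after their values were seen. The members and lists were chosen with earlier results of these data known. Alternatives were other pseudocounts, filters, scalings and thresholds, voom on the recovered reads, the replicate block and leaving out each library.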

Additional observations from a re-analysis of the deposited data

How the results depend on the processing

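The count of 12 mitotic kinesins that fell was the same under every alternative run except a log2 threshold of 1, which left 8, without KIF18A, KIF23, KIF18B and KIF22. Their median log2 fold change was -1.01 with a pseudocount of 1, -1.04 on TPM, -1.03 after quantile normalization and between -1.10 and -1.07 when 1 library was left out. The transport median was 0.018 on TPM and 0.032 after quantile normalization, a change of sign in a value close to 0.

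The 3 single calls outside the mitotic class were not stable. The counts of transport kinesins that rose, other genes that fell and other genes that rose were each 0 with a pseudocount of 1, with a mean of at least 5 FPKM (KIF13A, KIF21A and KIF7 were then not tested) and with a threshold of 1. The count of other genes that rose was also 0 after quantile normalization. Leaving out 1 library moved each of these counts between 0 and 1. Of 498 values of single kinesins under alternatives, 471 kept direction and call, 17 lost the call and 10 changed sign, all in genes that were called under no alternative. KIF3B was at 0.018 on TPM and 0.032 after quantile normalization, and KIF1C at 0.035 and 0.040. When 1 library was left out, KIF3B ranged from -0.036 to 0.0087, KIF1C from -0.040 to 0.030 and KIF9 from -0.012 to 0.088.

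Over all genes, 873 fell and 902 rose on TPM, against 980 and 766 on FPKM, so that the larger number changed sides. In all, 497 rose with a pseudocount of 1. With at least 5 FPKM, 532 fell and 290 rose, and with a threshold of 1, 205 fell and 168 rose. No scaling moved the median of all genes by more than 0.1 on the log2 scale. KLC3 lost its call on TPM and with a pseudocount of 1, and S phase genes that fell numbered 5 after quantile normalization and 0 with a threshold of 1. The dynein count was 1 lower, in place of 0, with a pseudocount of 0.01 and by voom.

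Replicate numbers are shared between the groups, but no source says that they mark a pairing, and deviations of same-numbered libraries correlated at -0.016, 0.0039 and 0.0038. With the replicate block 12 mitotic kinesins fell, the counts of the other classes were the same as without it, and 967 genes fell and 719 rose. Few reads limit most untested members: KIF17 had 16 to 32 in a library and the other untested transport kinesins at most 11. KIF21B, a long gene with 154 to 253 reads, was left out by the FPKM filter and not by depth.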

Other observations

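The table also lists 7 KIF-named rows that are not protein-coding and so are no members. KIF28P, a pseudogene, had 14, 23 and 19 reads in BrM3-shAKR1B10 and 6, 9 and 8 reads in BrM3-shNC, and its groups did not overlap. KIF9-AS1, antisense to KIF9, had 16, 17 and 12 reads against 15, 10 and 20 reads. KIF3AP1 had at most 3 reads in a library and KIF26B-AS1 at most 1, and KIF25-AS1, KIF4CP and KIF18BP1 were at 0. None was tested.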
